A study of Mus musculus with 4 samples.

Results

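The glial lineage marker genes described here are 9 genes: Gfap, Gja1, Cd44, Apoe, Clu and Glul, which are used as astrocyte genes, and Mbp, Cnp and Pdgfra, which mark oligodendrocytes or their precursors. They were found by the gene symbol of the platform annotation, which gave 19 of the 12403 gene probe sets, none of them shared with another symbol, and 9 of 8237 genes. Their expression was measured in c17.2, a mouse neural stem cell line immortalised with v-myc, on 1 Affymetrix array for each of 4 clonal lines. Clones 42 and 48 stably carry a transfected orphan receptor of the nuclear receptor family, Nurr1 (Nr4a2), and the control clones puroB and puroD an empty vector with puromycin resistance. All 4 lines were kept proliferating. Matched by proliferation rate, clone 42 and puroB form the first pair, and clone 48 and puroD the second. Each line is a single clone, so its differences from another line include those between any clones, and the labels do not name the promoter of the transgene. Values are MAS5 signals, 1 per probe set and array on a linear scale.

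Astrocytes carry intermediate filaments of glial fibrillary acidic protein (Gfap), are coupled by connexin 43 gap junctions (Gja1), make glutamine from glutamate with glutamine synthetase (Glul) and secrete the lipid carriers apolipoprotein E (Apoe) and clusterin (Clu). Cd44, a hyaluronan receptor, is carried by astrocyte precursors and by many other cells. Oligodendrocyte precursors carry the platelet-derived growth factor receptor alpha (Pdgfra), and mature oligodendrocytes make myelin with myelin basic protein (Mbp) and the enzyme CNPase (Cnp). Several of these genes are not exclusive to glia: Gja1, Cd44 and Pdgfra are also active in mesenchymal cells, and Glul in liver and muscle.

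Across the series, the 15 control probe sets for bacterial transcripts, which gave low signals on every array, served as a measure of background, with medians between 6.0 and 9.0. Their highest values were 62.7 on clone 42, 39.1 on clone 48, 49.8 on puroB and 59.1 on puroD, and a signal counts as above background when it exceeds the value of its own array. Nr4a2, the transfected gene, had 320.1 (clone 42) and 206.4 (clone 48), against 485.0 (puroB) and 254.2 (puroD) (92248_at), and it was also lower in both pairs at 92249_g_at, with log2 differences of -0.98 and -0.91. The labels do not say whether its probes lie in the transfected sequence. The lines are called Nurr1-labelled clones because this direction goes against the label. The actin controls, in which a high 3' over 5' ratio goes with degraded RNA, had ratios of 1.68 (clone 42) and 2.41 (clone 48), against 1.51 (puroB) and 2.003 (puroD). Among the marker lists, 4 of 8 neural stem and progenitor genes on the array were above background on all 4 arrays, including Nes (3174 and 3720 in the Nurr1-labelled clones, 3325 and 3030 in the controls), whereas Vim lay between 29.8 and 84.6 at its only probe set. The summed signal of 9 neuron markers was 5512 to 6949 in Nurr1-labelled clones and 3398 to 3440 in controls, with Snap25, Syt1 and Gap43 under background. Most of it was the tubulin gene Tubb3 (5688 and 4633 against 2703 and 2704), and without Tubb3 the sums were 879.8 to 1261 against 694.6 to 736.7. Map2 went the other way, with 45.8 and 4.2 against 198.1 and 120.3, and Dcx had 51.9 and 23.2 against 60.3 and 57.7. The sum of 12 fibroblast markers was 19860 to 27990 against 12710 to 20850, with Acta2 under background. That of 8 neural stem and progenitor markers was 4431 to 4519 against 5378 to 5433. That gap came from Fabp7, a fatty acid binding protein gene of radial glia, with 564.5 and 157.3 against 1293 and 1539 (limma adjusted p = 0.0503), and without it the sums overlapped, at 3867 to 4362 against 3894 to 4086. The part of these differences, and of the actin ratio, in the glial values was not tested.

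Of the 19 glial probe sets, 8 were above background on all 4 arrays, 5 on some and 6 on none. Gja1 (both probe sets), Cd44 (103005_s_at), Clu (95286_at), Glul (both) and Mbp (both) were above background in every clone. Pdgfra was above it in 3 of 4 clones, Gfap and Apoe in 2 of 4 at their brightest probe set, and Cnp in none. With fewer cells expressing a gene or less RNA per cell the signal falls alike, and an array of a whole culture cannot tell these apart. Probe set names carry Affymetrix's own warnings: f marks probes that may also bind related sequences, s probes shared by several transcripts, and i and r sets that did not meet all rules of design.

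**Figure D1:**
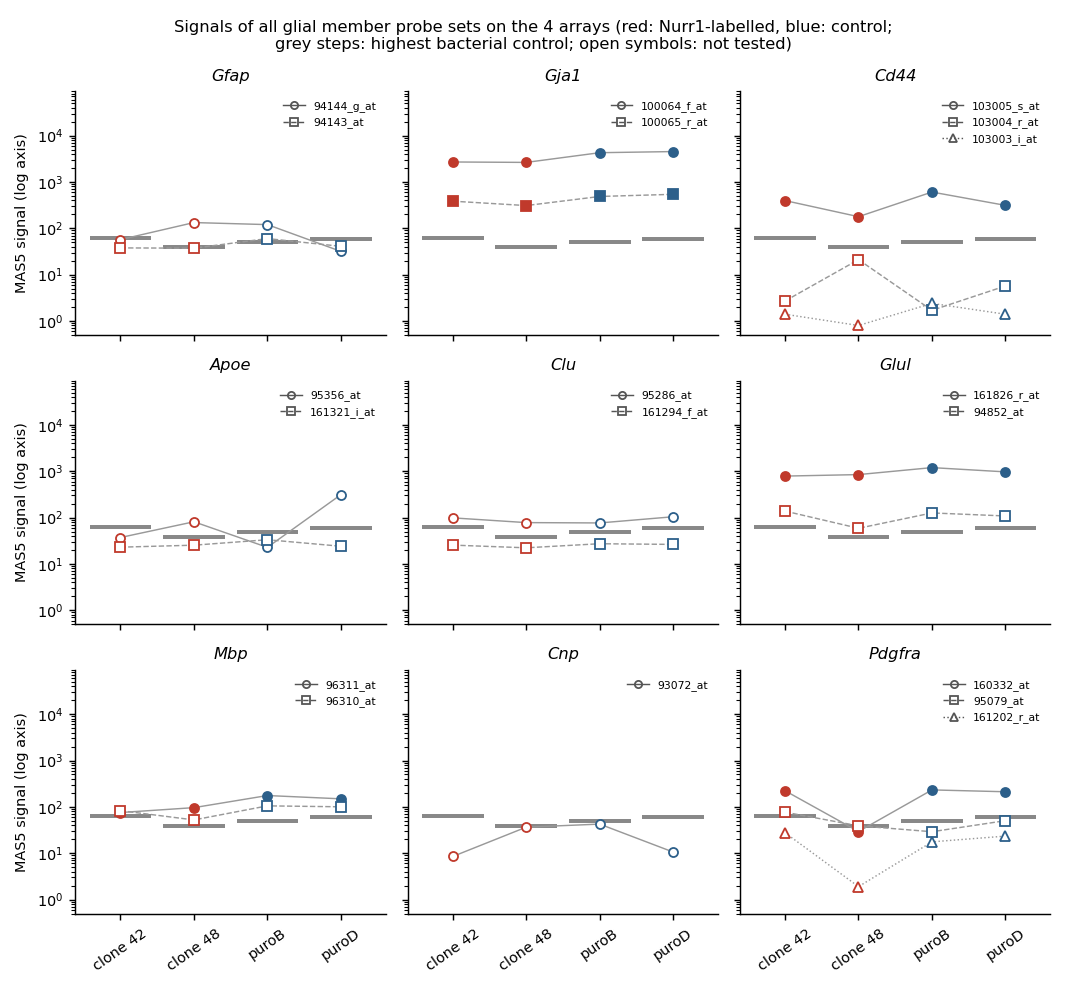
MAS5 signal (log axis) of every probe set of the 9 genes on the arrays of clone 42, clone 48, puroB and puroD; filled symbols were tested, open ones were too dim to be tested, and grey steps give the highest bacterial control on each array. Gja1, Cd44 (103005_s_at), Glul and Mbp lie above the steps in every clone, Cnp in none, and Apoe (95356_at) stands out in puroD at 312.8.

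The proximal promoters of the member genes were read from RefSeq, in windows from 250 bases before to 50 bases after the transcript start, of which 9 windows covered 7 members, those other than Mbp and Clu. Shown here are the 100 bases before the start for Gja1, Cd44, Glul and Pdgfra, the tested members with a window, with capitals marking matches to the searched motifs. The stretches lie in GRCm38.p6 at chr10:56377200-56377299 on the plus strand for Gja1, chr2:102901666-102901765 on the minus strand for Cd44, chr1:153899829-153899928 on the plus strand for Glul and chr5:75152151-75152250 on the plus strand for Pdgfra, all printed 5′ to 3′ on the gene's strand.
Gja1: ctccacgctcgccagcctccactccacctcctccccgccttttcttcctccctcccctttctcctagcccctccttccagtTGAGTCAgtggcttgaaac
Cd44: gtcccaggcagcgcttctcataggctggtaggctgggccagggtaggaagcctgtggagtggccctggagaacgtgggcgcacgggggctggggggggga
Glul: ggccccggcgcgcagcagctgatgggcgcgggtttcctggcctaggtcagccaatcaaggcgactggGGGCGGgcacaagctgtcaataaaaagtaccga
Pdgfra: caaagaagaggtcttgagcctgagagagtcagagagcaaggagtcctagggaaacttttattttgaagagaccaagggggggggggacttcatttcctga

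The capitals in Gja1 are a match to the AP-1 motif TGANTCA at -19, and those in Glul a match to the GC box GGGCGG at -33. Matches were sought on both strands over the whole windows. The monomer element that Nurr1 is known to bind, AAAGGTCA, matched in 0 of 7 member genes and in 1.70% of all 27025 genes with a window. The AP-1 motif matched in Gja1 alone among the 7, against 8.97% of all genes. The GC box matched in Glul, Cd44 and Cnp, against 38.2%, and the TATA box TATAAA in Apoe, in 1 of its windows, against 15.7%. The STAT motif TTCNNNGAA matched in Gfap alone, against 9.55% of all genes, and is shown because STAT3 is a known activator of Gfap. Its match lies across the transcript start at chr11:102897184-102897212 on the minus strand, with 2 of its bases before the start.
Gfap: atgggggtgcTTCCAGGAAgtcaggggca

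These matches describe letters in a window. No binding was measured.

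Nurr1-labelled and control clones were then compared to ask which transcripts differ between the clones labelled Nurr1 and their matched controls. Gja1, Cd44, Glul, Mbp and Pdgfra were bright enough to be tested, with 6 probe sets, and each of these was lower in the Nurr1-labelled clone of both matched pairs. None of the differences passed the test. For the test, a floor of 40.3, the 30th percentile, was set under signals rescaled to a common trimmed mean of 500 per array, and probe sets with at least 2 of 4 arrays above the median of all values (145) were fitted with limma with the matched pair as a block. Of 6419 probe sets, 7 passed at a Benjamini-Hochberg adjusted p under 0.05, which is 0.109%. Of these, 4 were higher (0.0623% of the tested) and 3 lower (0.0467%) in Nurr1-labelled clones. Of the 6 glial probe sets 0 passed in limma (adjusted p between 0.565 and 0.896), and 3 had an unadjusted p under 0.05, all of them lower, beside 7.38% of all tested probe sets in either direction and 5.06% lower. In the first pair 6 of 6 were lower, beside 55.0% of all, and in the second pair 6 of 6, beside 53.0%. A lower signal in both pairs was found for 29.7% of all tested probe sets. Both Nurr1-labelled arrays lay under both controls in 4 of the 6, beside 17.9% of all, and above both in 0, beside 12.8%. The median of the 5 tested genes, each at its brightest probe set, was -0.72 on the log2 scale, beside -0.04 for all tested probe sets. That median and these counts are descriptions, because the genes were chosen with earlier results known and because the filter admits some of them only through their bright arrays. With 2 clones per group, an exact permutation test that ignores the pairs cannot give a two-sided p under 0.333. One that keeps the pairs has fewer arrangements still, so the spread pooled over all probe sets carries the test.

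Gja1, the connexin of astrocyte gap junctions, was lower by similar amounts in both pairs. Its probe set 100064_f_at gave 2703 (clone 42) and 2647 (clone 48), against 4287 (puroB) and 4534 (puroD). Clones of one label lay close together and the groups did not overlap. The signal was 1.59-fold lower in clone 42 and 1.71-fold lower in clone 48 than in the matched control, and the mean log2 difference was -0.72 ± 0.31 (SE, n = 2 clones per group; limma adjusted p = 0.593, 95% interval -1.39 to -0.054). The dimmer probe set 100065_r_at, made from the same transcript record, had 385.5 (clone 42) and 309.9 (clone 48), against 487.0 (puroB) and 542.2 (puroD). It was also lower in both pairs without overlap, with a mean log2 difference of -0.57 ± 0.29 (SE, n = 2 per group; limma adjusted p = 0.757). The mean difference at 100064_f_at lay between -0.76 and -0.68 when any 1 clone was left out.

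Cd44, the hyaluronan receptor, was lower within each pair, but the pairs differed from each other by more. Its probe set 103005_s_at had 397.2 (clone 42) and 178.4 (clone 48), against 606.7 (puroB) and 313.0 (puroD). The order from high to low was puroB, clone 42, puroD and clone 48, so that the groups overlapped and the first pair was the higher one under both labels. Cd44 was 1.53-fold lower in clone 42 than in puroB and 1.75-fold lower in clone 48 than in puroD. Between clones of one label it was 2.23-fold higher in clone 42 than in clone 48 and 1.94-fold higher in puroB than in puroD. The mean log2 difference was -0.71 ± 0.29 (SE, n = 2 per group; limma adjusted p = 0.568), and in fits without the pair it was -0.13 without clone 48, -0.23 without puroB, -1.29 without clone 42 and -1.19 without puroD. The other Cd44 probe sets, 103003_i_at and 103004_r_at, were under background on every array, at most 21.1.

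Glul, the glutamine synthetase gene, showed a smaller difference. At 161826_r_at its signals were 786.8 (clone 42) and 847.5 (clone 48), against 1199 (puroB) and 970.3 (puroD). Both Nurr1-labelled clones lay under both controls. The signal was 1.52-fold lower in the first pair and 1.14-fold lower in the other, with a mean log2 difference of -0.40 ± 0.30 (SE, n = 2 per group; limma adjusted p = 0.896). The dimmer probe set 94852_at, not tested, had 138.4 (clone 42) and 58.8 (clone 48), against 126.1 (puroB) and 108.5 (puroD). There only clone 48 stood apart, 1.84-fold under puroD, and clone 42 was 1.10-fold above puroB.

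Gfap, the filament protein that defines mature astrocytes, was near background. At 94144_g_at it had 57.1 (clone 42) and 133.2 (clone 48), against 120.3 (puroB) and 31.8 (puroD). It was above background in clone 48 and puroB alone, so that the pairs ran in opposite directions. Clone 48 was 2.25-fold above the highest bacterial control on puroD, and puroB was 1.92-fold above that on clone 42. The second Gfap probe set, 94143_at, of the same transcript record, had 37.8 (clone 42) and 37.3 (clone 48), against 60.1 (puroB) and 40.9 (puroD), and exceeded background in puroB alone.

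Apoe, the main lipid carrier secreted by astrocytes, set a single clone apart. At 95356_at its signal was 37.2 (clone 42) and 81.3 (clone 48), against 22.8 (puroB) and 312.8 (puroD). The bright array was 1 of the 2 controls, and both arrays of the first pair were under background. In the second pair the signal was 3.85-fold lower in clone 48 than in puroD. Between the controls, puroD was at least 7.76-fold above puroB in signal, with puroB at the floor, and 6.28-fold above the highest bacterial control on that array. Of all 12403 gene probe sets, 4, Apoe among them, differed as much between the control clones. Apoe was not tested, since only puroD exceeded the median of all values. The other probe set, 161321_i_at, lay between 23.0 and 33.3 on the 4 arrays, under background on each, and did not show the high signal of puroD.

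Clu, a secreted chaperone of lipid particles, was dim and even. At 95286_at it had 98.7 (clone 42) and 78.0 (clone 48), against 76.7 (puroB) and 104.3 (puroD). The ranges of both labels overlapped, with the signal 1.29-fold higher in clone 42 than in puroB and 1.34-fold lower in clone 48 than in puroD. The second probe set, 161294_f_at, lay between 22.3 and 27.3, under background on every array.

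Pdgfra, the receptor of oligodendrocyte precursors, was low in a single clone. At 160332_at its signal was 223.1 (clone 42) and 29.4 (clone 48), against 232.4 (puroB) and 212.0 (puroD). Clone 42 and both controls lay close together, and clone 48 was under background. In the second pair the signal was at least 5.26-fold lower in clone 48 (a bound, its signal being at the floor), and in the first pair it was 1.04-fold lower in clone 42. The floor exceeded the highest bacterial control on clone 48, against which puroD was 5.42-fold higher. A difference this low in the second pair was found in 14 of 6419 tested probe sets (0.218%), Pdgfra among them. The fitted mean of -1.23 ± 0.51 (SE, n = 2 per group; limma adjusted p = 0.565) takes clone 48 at the floor and is no bound. Without clone 48 the difference was 0.0074, and without clone 42 it was -2.46, both in fits without the pair. The other Pdgfra probe sets did not follow this pattern above background: 95079_at had 76.9 (clone 42) and 39.0 (clone 48), against 29.1 (puroB) and 50.4 (puroD), and was above background in clone 42 alone. At 161202_r_at every array was under background, with 27.7 (clone 42) and 1.9 (clone 48), against 17.6 (puroB) and 23.4 (puroD).

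Mbp, the myelin basic protein gene, was low in all clones and lower in those labelled Nurr1. At 96311_at it had 75.5 (clone 42) and 96.3 (clone 48), against 175.8 (puroB) and 149.2 (puroD). The groups did not overlap, and the signal was 2.33-fold lower in the first pair and 1.55-fold lower in the other. The 75.5 of clone 42 lay close to the highest bacterial control on its array, 62.7, so the size of these differences is uncertain. The mean log2 difference was -0.93 ± 0.45 (SE, n = 2 per group; limma adjusted p = 0.717). This probe set entered the test only through its control arrays, so a lower value in the Nurr1-labelled clones was built into its selection. The probe set 96310_at, from another Mbp transcript record and not tested, had 82.9 (clone 42) and 52.3 (clone 48), against 105.2 (puroB) and 100.4 (puroD), again lower in both pairs without overlap. Its log2 differences were -0.34 and -0.94.

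Cnp, the myelin-associated CNPase, was under background on all 4 arrays at 93072_at, with 8.5 (clone 42) and 36.5 (clone 48), against 42.5 (puroB) and 10.6 (puroD). No direction can be read from these values.

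**Figure D2:**
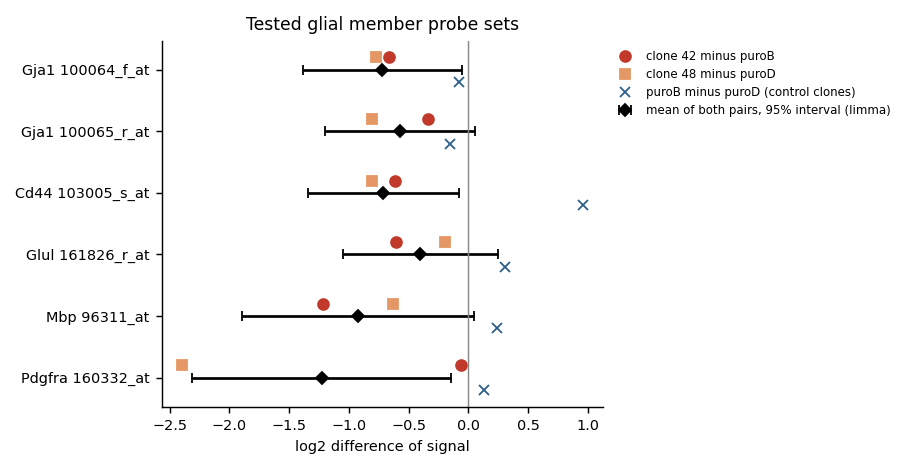
Log2 differences of signal for the 6 tested glial probe sets, in the pairs of clone 42 with puroB and clone 48 with puroD, with their mean and 95% interval from limma (black) and the difference between the control clones (crosses). All pair differences are negative; for Cd44 the control clones lie 0.96 apart, and for Pdgfra the difference comes from clone 48.

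Of the 6 tested probe sets, 1 (Mbp) was 2-fold or more lower in clone 42 than in puroB, beside 4.78% of all tested probe sets, and 1 (Pdgfra) was 2-fold or more lower in clone 48 than in puroD, beside 3.72%. Mbp passed the filter only through its control arrays, which favours a lower value in clone 42, so its count cannot be read against that share. None was 2-fold higher in either pair (3.57% and 1.67% of all tested). Clone 42 and clone 48 were 2-fold or more apart at 2 of the 6, Cd44 and Pdgfra, beside 10.7% of all tested probe sets. The control clones were 2-fold apart at 0 of the 6, beside 6.06%.

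**Figure D3:**
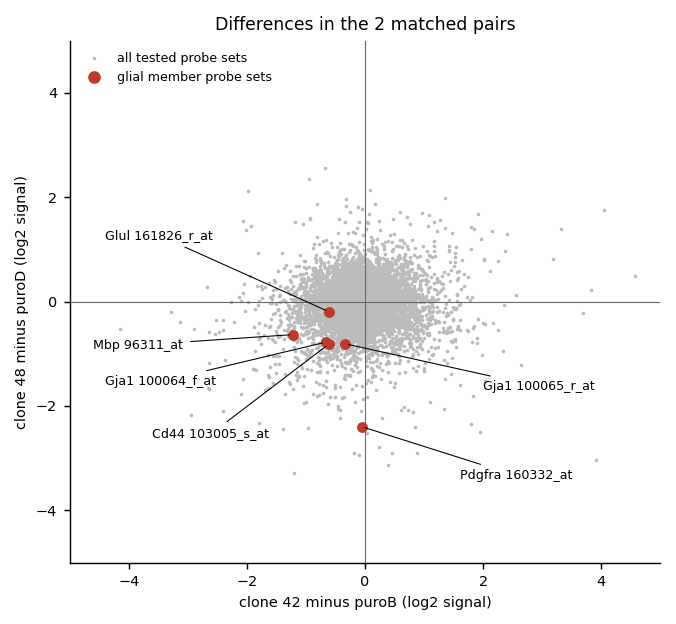
Log2 difference of clone 42 from puroB (x axis) and of clone 48 from puroD (y axis) for all 6419 tested probe sets (grey) and the 6 glial ones (red, named by probe set). The glial probe sets are negative on both axes, Pdgfra near 0 on the x axis and at -2.40 on the y axis, where clone 48 was at the floor.

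For the 3 tested members with the widest range, the genes with the most similar profile were found by the distance between log2 signals centred on their mean over the 4 arrays. Nearest to Pdgfra (160332_at) were Reep1 (distance 0.285), Lgals9 (0.321) and Ssbp4 (0.399), of 6 probe sets within 0.5. Nearest to Cd44 were Ets1 (0.164), Grina (0.173) and Srpr (0.191), of 87 within 0.5, and nearest to Mbp (96311_at) were Kcnab2 (0.071), Tbl3 (0.109) and Cited1 (0.127), of 196.

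The other astrocyte genes that could be tested did not share a direction. Of 29 listed genes 19 were on the array and 7 were tested, of which 0 were lower and 0 higher in both pairs, beside 29.7% and 21.7% of all tested probe sets, and 0 passed in limma (0 also at an unadjusted p under 0.05). Their median log2 difference was 0.22. Among the dimmer, untested ones, Aldoc (-1.49 in the first and -0.90 in the second pair) and Sparcl1 (-1.50 and -1.17) were lower in both pairs. So were Slc4a4, Aldh1a1, Fgfr3 and Nfia, whereas Slc15a2 (0.58 and -0.87) and Ntsr2 (0.18 and -1.38) ran in opposite directions. Aldoc, Sparcl1, Slc4a4, Slc15a2 and Ntsr2 each had at least 1 array at the floor, and these untested genes were named after their values were seen. Named after their values were seen, S100b, a calcium-binding protein of astrocytes and Schwann cells, had 1601 (clone 42) and 509.5 (clone 48), against 735.9 (puroB) and 625.8 (puroD) (101467_at). Nfix, a nuclear factor of gliogenesis, was also named for its values, 444.3 (clone 42) and 1700 (clone 48), against 558.1 (puroB) and 436.8 (puroD) (101930_at). A second Nfix probe set, 100307_at, dim and not tested, had 62.8 and 107.3, against 87.0 and 77.2. There clone 48 was 1.39-fold above puroD, against 3.89-fold at 101930_at. The high clone was clone 42 for S100b and clone 48 for Nfix. Of 6 astrocyte markers on the array, 2 were under background on every array, the water channel gene Aqp4 and the connexin gene Gjb6. S100b alone was above background on all 4 arrays, and Gfap, Slc1a2 and Aldoc were above it on some.

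Among other oligodendrocyte lineage genes 15 of 36 were on the array and 5 were tested. Of these 2 were higher and 1 lower in both pairs, beside 21.7% and 29.7% of all tested probe sets. Their median was 0.08, and 0 passed in limma (0 at an unadjusted p under 0.05). Sox10, a transcription factor of the oligodendrocyte and neural crest lineages, had 5119 (clone 42) and 7668 (clone 48), against 4749 (puroB) and 3437 (puroD) (102856_at). It was above background in every clone, and its log2 differences were 0.11 (first pair) and 1.16 (second pair) (limma adjusted p = 0.788). At a second Sox10 probe set, 100283_at, the mean difference was 0.24 (limma adjusted p = 0.974), with -0.17 in the first pair. The actin-severing gelsolin gene Gsn had -0.42, and Qk, which encodes the RNA-binding protein quaking, 0.17 at 95096_at and -0.14 at 160726_at. The myelin genes Mog and Ugt8a were under background on all arrays, as were Nkx2-2, Nkx6-2 and Car2. Mobp, Cldn11, Mal and Gjb1 were above it on some arrays. Myrf, not tested, was above it on all, with 107.9 (clone 42) and 222.5 (clone 48), against 134.7 (puroB) and 73.8 (puroD). Its pairs ran in opposite directions. The myelin gene Mag was above background at 161846_r_at, with 119.9 to 150.3, but not at 102405_at, with 7.9 to 23.2.

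Intermediate filament genes went in different directions. Plec, which links filaments to junctions, fell: its signal was 487.7 (clone 42) and 267.5 (clone 48), against 1282 (puroB) and 1456 (puroD), with a mean log2 change of -1.92 ± 0.32 (SE, n = 2 per group; limma adjusted p = 0.0487). It was the 1 gene of 7 tested that passed. The adjusted p is close to the threshold, and the fits without the pair as a block, with quantile normalization, with no floor or with no filter made 0 calls in all. The neurofilament genes Nefl (1.67, adjusted p = 0.105) and Nefm (1.61, 0.0853) were higher in both pairs without passing in limma. The nuclear lamin gene Lmnb2 had -0.43. The list's median was 0.11.

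Of 3 tested gap junction genes, Gja1 among them, 2 were lower and 1 higher in both pairs, beside 29.7% and 21.7% of all tested probe sets. Gja5, another connexin, was at -0.13 and the scaffold gene Tjp1 at 0.25. Of 7 tested hyaluronan genes, Cd44 among them, 4 were lower and 0 higher in both pairs, beside the same 29.7% and 21.7%. Their median was -0.18. The hyaluronidase gene Hyal2 had 257.9 (clone 42) and 365.7 (clone 48), against 569.8 (puroB) and 459.1 (puroD), without overlap and with a mean log2 difference of -0.74 ± 0.31 (SE; limma adjusted p = 0.574). Ezr, which ties Cd44 to actin, had -0.47, and the hyaluronan synthase gene Has2 -0.11.

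Of 10 tested glutamine and glutamate genes, Glul among them, 3 were lower and 2 higher in both pairs (median -0.23), beside 29.7% and 21.7% of all tested probe sets. The neutral amino acid transporter gene Slc1a4 had -0.64 ± 0.30 (SE; limma adjusted p = 0.666), with 715.2 (clone 42) and 541.4 (clone 48), against 975.4 (puroB) and 964.0 (puroD). Slc1a5, a glutamine transporter gene, had -0.25. Glud1 (glutamate dehydrogenase) had 0.24 and Got2 (an aminotransferase) 0.15. Of the 4 PDGF genes on the array, the ligand gene Pdgfa was tested beside Pdgfra, at 0.17 (limma adjusted p = 0.989).

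Of 9 tested apolipoprotein and lipid transport genes, both pairs agreed on higher for 3 and on lower for 2, with a median of 0.01. Of all tested probe sets, 21.7% were higher and 29.7% lower in both pairs. Among the 3 higher genes was Pltp, the phospholipid transfer protein gene, with 379.9 (clone 42) and 345.2 (clone 48), against 178.4 (puroB) and 109.3 (puroD). Its Nurr1-labelled arrays were 2.13-fold and 3.16-fold above their matches, a mean log2 difference of 1.37 ± 0.34 (SE; limma adjusted p = 0.144). The lysosomal cholesterol export genes Npc2 (0.51) and Npc1 (0.43) were also higher in both pairs, and the receptor gene Lrp1 (-0.33) lower. Apoe and Clu, the members of this list, were too dim for the test.

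Of 22 tested genes of gliogenic signalling (LIF and STAT3, BMP and Id, Notch), 9 were lower and 2 higher in both pairs, with a median of -0.14, and 0 passed in limma (0 at an unadjusted p under 0.05). The share lower in both pairs is 9 of 22, beside 29.7% of all tested probe sets, and the share higher is 2 of 22, beside 21.7%. Named by the rule were the receptor gene Notch2 (-0.67), Id2 (-0.57) and Id4 (-0.55), which encode inhibitors of differentiation factors, and the DNA methyltransferase gene Dnmt1 (-0.54). For Notch2 the signals were 192.7 (clone 42) and 196.2 (clone 48), against 363.6 (puroB) and 261.8 (puroD) (limma adjusted p = 0.717), and for Id2 310.9 and 426.7, against 495.9 and 590.1 (limma adjusted p = 0.740). At both genes the Nurr1-labelled arrays lay under the controls without overlap.

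**Figure D4:**
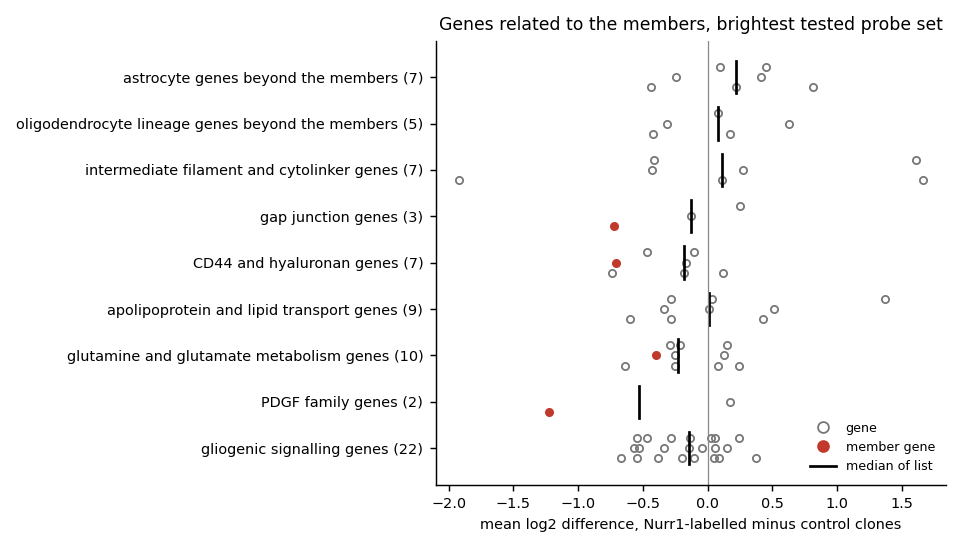
Mean log2 difference of Nurr1-labelled from control clones for the tested genes of 9 related lists, 1 point per gene at its brightest probe set, with member genes in red and the list median as a bar; the number tested is in brackets. Plec (-1.92) is the lowest point, Nefl and Nefm the highest, and the member genes Gja1, Cd44, Glul and Pdgfra lie left of 0.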

How the data were processed

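Total RNA of 4 c17.2 clones was labelled with biotin and hybridised to 1 array each. The authors deposited intensity on a linear scale for 12469 probe sets. MAS5 was used, per the submitters' processing notes, with no version, target or detection call stated there. Trimmed means of 500.4 to 500.5 show that the authors' values had been scaled. Here each array was rescaled to a 2% trimmed mean of 500, floored at the 30th percentile, put on the log2 scale and filtered, without the 66 array controls. limma 3.58.1 in R 4.3.3 (lmFit, blocked by pair, then eBayes with a trend on intensity, 1 residual and 13.1 prior degrees of freedom) was also run on simulated data. The differences planted there exceeded the mean differences of the tested members. That run therefore does not show how the test performs at their size. The pairing comes from the labels, and across genes, the 2 arrays of a pair deviated from their groups with r = 0.19. The design text writes the number of clone 42 beside puroD, and the sample descriptions were followed. Of the gene probe sets, 10814 had 1 symbol, checked by Entrez identifier against RefSeq (GRCm38.p6, names only). No probe coordinates were used.

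The members and lists were chosen with earlier results of these data known. Named by rule were all member probe sets, Nr4a2, the genes nearest in profile, and genes of the related lists. Per related list these were each gene that passed and up to 4 genes with the largest difference of one direction in both pairs. Other names, such as Pmp22 and single genes of the marker lists, were outside this rule. They are to be read as chosen after their values were seen, also where this is not said beside them. The motifs AP-1, GC box and TATA box were added after the promoters were read. Alternatives were the block, scaling, floor, filter, trend and leaving out each clone. The number of arrays limits the precision. In the main fit, p-values measure how far the differences between single clones disagree between the pairs, weighed with the spread pooled over all probe sets. Spread between clones that the arrays of a pair share is removed by the block and does not enter them.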

Additional observations from a re-analysis of the deposited data

Results flagged for a closer look

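In 4 member probe sets the matched pairs ran in opposite directions, and the difference between pairs was not tested. Gfap (94144_g_at) had a log2 difference of -1.08 between clone 42 and puroB and of 1.72 between clone 48 and puroD, where puroD was at the floor. Clu (95286_at) had 0.36 and -0.42 in these pairs, Glul (94852_at) 0.13 and -0.88, and Pdgfra (95079_at) 0.93 and -0.32, with 1 array of each Pdgfra pair at the floor. Each pair is 1 array against 1, and all of these probe sets were too dim to be tested.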

How the results depend on the processing

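The number of glial probe sets called was 0 under each of the 12 alternatives. The number called among all tested probe sets was 7 and became 0 with no replicate block for the pair (287 at an unadjusted p under 0.05), with quantile normalization (375), with no floor (473) and with no filter (560). It was 51 with median scaling and 49 with the filter on all 4 arrays, and between 0 and 51 when 1 clone was left out, in fits without the pair, which assume that a lone clone varies like the others. Without clone 42, clone 48, puroB and puroD it was 17, 51, 0 and 2. Of the calls, 4 of 7 were higher in Nurr1-labelled clones, as were 36 of 51 with median scaling, but 1 of 7 with no intensity trend (3 of them shared) 3 of 17 without clone 42, 22 of 51 without clone 48 and 2 of 2 without puroD. The median of the tested glial genes was -0.72, moved to -0.55 with median scaling, and lay between -1.04 and -0.46 without 1 clone. Median scaling shifted the median of all tested probe sets by 0.17. The replicate block changed no glial call; without it Gja1 (100064_f_at) had an unadjusted p of 0.0253 in limma and Cd44 0.154. The 6 tested glial probe sets kept a negative difference under every alternative that tested them, except Pdgfra (160332_at) without clone 48 (0.0074). Low signal over background limits Gfap, Apoe, Clu, Cnp, Mbp and Pdgfra, whose sizes near the floor are uncertain.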

Other observations

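Pmp22, a myelin protein gene of Schwann cells, had 673.5 (clone 42) and 1010 (clone 48), against 1463 (puroB) and 1664 (puroD) (102395_at), without overlap and with a mean log2 difference of -0.92 (limma adjusted p = 0.360). It was named after its values were seen. No other Schwann cell marker on the array was lower in both pairs. In the first and second pair, Sox10 had log2 differences of 0.11 and 1.16 at 102856_at, and -0.17 and 0.65 at 100283_at. S100b had 1.12 and -0.30, so that its pairs disagreed, and Egr2 was under background on all 4 arrays. Among microglia and macrophage markers, Aif1, Itgam, Tyrobp and Ptprc were under background on every array, whereas the complement gene C1qc had 43.9 (clone 42) and 38.6 (clone 48), against 134.7 (puroB) and 167.4 (puroD) (92223_at). C1qa had 33.5 and 46.8 in these Nurr1-labelled clones, against 108.6 and 105.3 in the controls (98562_at). Of the brighter genes of that list, C1qb was lower in both pairs too (-0.29 and -0.99), and the others were not: the log2 differences in the first and second pair were -0.19 and 0.40 for Cx3cr1, 0.26 and -0.36 for Csf1r and 0.07 and -0.74 for Cd68, and the median of the 3 tested genes was -0.05. Both complement genes were too dim to be tested and were named after their values were seen. The lipid exporter gene Abca1, also chosen after its values were seen and not tested, had 389.5 (clone 42) and 126.9 (clone 48), against 109.6 (puroB) and 48.0 (puroD) (94354_at). A second Abca1 probe set had 149.0 and 21.6, against 61.3 and 47.9 (97198_at).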
